A study of Homo sapiens with 3 samples.

Results

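The genes described here belong to families known for enzymes that write or erase methyl groups on histone lysines. They were chosen by symbol, as protein-coding genes of the KMT, KDM, SETD, SETDB, EHMT, EZH, SUV39H, NSD, PRDM and SMYD families together with DOT1L, ASH1L, PHF2 and PHF8. UTY and KDM5D were left out. The rule found 71 members among 58735 genes in the table, of which 19951 are protein-coding, and it used no measured value. RNA was measured by sequencing of poly(A)-selected RNA in 3 libraries from RPE-1, an established line of telomerase-immortalised human cells from the retinal pigment epithelium. These cells carry Cetn2 tagged with GFP, which marks centrioles, and PLK4 under a doxycycline-inducible promoter that answers to rtTA. All 3 libraries came from cells given scramble siRNA in which PLK4 was not induced, so they form 1 group and no condition could be compared. The labels do not state separate cultures for these libraries, so a p-value here speaks only of the variation among these 3 libraries, part or all of which may be technical.

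Methyl groups on histone lysines are placed by enzymes that carry a SET domain, with DOT1L as the exception, and removed by flavin-dependent amine oxidases (the KDM1 pair) or by JmjC dioxygenases (the other demethylases). The effect depends on the lysine. Methylation of H3K4, H3K36 and H3K79 marks active promoters, enhancers and transcribed bodies, that of H3K9 and H3K27 marks repressed chromatin, and that of H4K20 is tied to the cell cycle and compaction. The PRDM proteins share a domain related to SET, but most act as zinc-finger transcription factors, and only some have shown enzyme activity.

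The libraries held 49279692, 60040029 and 46625774 counts, and 19953, 24416 and 23050 genes had a count in them, the fewest in library 1, which was deeper than library 3. The members took 0.311 ± 0.00927% of them (SD, n = 3, as for every value with ± here). Library 1 stood apart: over all tested genes the SD of log2 ratios was 0.355 between libraries 1 and 2, 0.351 between 1 and 3 and 0.187 between 2 and 3, and over the members it was 0.291, 0.290 and 0.166. Of 8 pigment epithelium markers only OTX2, MITF and BEST1 were detected, RPE65 was near 0 (8, 6 and 0 counts), and no read was counted for TYR, DCT or TTR. BEST1 stood at 1.03 ± 0.0905 RPKM. Of its exon length 14.2% overlaps FTH1 on the other strand, so its detection is uncertain if strand was not used in counting. Of the markers of other cells, 4 of 5 for neurons were detected (SYT1 highest at 13.9 ± 0.454 RPKM). Among these, TUBB3 shares 35.8% of its exon length with a gene on its strand. For blood cells 2 of 5 were detected (LCP1 at 0.879 ± 0.106 RPKM), and none of 5 for germ cells or of 5 for muscle. Of 3 epithelial markers, KRT8 (92.2 ± 13.2 RPKM) and KRT18 (76.4 ± 12.6 RPKM) were detected, and CDH1 had 0, 5 and 5 counts. KRT8 and KRT18 overlap each other on opposite strands. Whether other cells added to the levels below was not tested.

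Of the 71 members 62 were detected, that is, had at least 1 CPM (counts scaled to library size, with TMM factors) in each library. This is 87.3%, beside 57.7% of all protein-coding genes. With a limit of 0.5 CPM it was also 62 (59.9% of protein-coding genes) and with 2 CPM it was 61 (54.9%). The median over the detected members was 4.37 RPKM, which is CPM per kb of a gene's annotated exons, beside 6.09 RPKM over detected protein-coding genes. In CPM, without length, the order was the other way, with 42.4 for the members and 32.97 for detected protein-coding genes. The members have long transcripts, with a median exon length of 8.14 kb against 5.30 kb. Methyltransferases outside the PRDM family were detected for 34 of 35 genes (median 4.97 RPKM), demethylases for 19 of 21 (median 4.72) and PRDM genes for 9 of 15 (median 0.992).

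The members below detection are mostly known from other tissues. SMYD1, a methyltransferase of heart and skeletal muscle, had 0, 1 and 0 counts. PRDM9, which sets meiotic recombination sites, its close relative PRDM7, PRDM13 of the developing nervous system, PRDM14 of pluripotent and germ cells, and the demethylase genes KDM4E and KDM4F had 0 counts in each library. Counting error alone leaves room for 3 counts where 0 were seen, that is, for 0.0618, 0.0494 and 0.0641 CPM in libraries 1, 2 and 3. This allows for no other loss, and library 1, with fewer genes counted, had 0 for RCOR2 (0, 22 and 13 counts) and HR (0, 18 and 10 counts), so a 0 there limits a level less than the floor says. PRDM12, of pain-sensing neurons, had 0, 4 and 2 counts. PRDM6, of smooth muscle, came nearest to the limit, with 17, 36 and 34 counts or 0.35, 0.593 and 0.727 CPM. Just inside the limit lay KDM4D with 2.97, 1.74 and 1.92 CPM and KDM8 with 2.29, 3.62 and 2.42 CPM. PRDM7 and PRDM9, and KDM4E and KDM4F, are near-identical copies, so their counts are uncertain.

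The 250 bases before the transcription start, from RefSeq on GRCh38.p14, were matched for 63 of the 71 members. DOT1L, KDM4E, NSD3, PRDM14, PRDM16, PRDM6 and SETD1B were among those without a match. The dinucleotide CG reads the same on both strands and marks CpG islands where it is dense. It occurred a median of 25 times in the promoters of 57 detected members and 11 times in those of 6 members below detection. Over all protein-coding genes with a match, the medians were 21 for 9267 detected genes and 6 for 5633 genes below detection. At least 1 CG was present in 100% of the members' windows and in 96.9% of those of all protein-coding genes. Fewer than 10 stood in 7.02% of windows of detected members and in 13.4% of those of all detected genes. The 5 sequences shown span the range of CG counts and were taken from members whose window holds little or no annotated exon. NSD2 has 50 CG, as many as any member, EZH2 is CG-rich, SUV39H1 was detected with few CG, and PRDM12 and KDM4F, both below detection, have the most and the fewest CG of the members below detection. Each runs 5′ to 3′ on the gene's strand and ends at the base before the start, with every CG in capitals.
NSD2 (chr4:1871143-1871392, plus strand, 50 CG): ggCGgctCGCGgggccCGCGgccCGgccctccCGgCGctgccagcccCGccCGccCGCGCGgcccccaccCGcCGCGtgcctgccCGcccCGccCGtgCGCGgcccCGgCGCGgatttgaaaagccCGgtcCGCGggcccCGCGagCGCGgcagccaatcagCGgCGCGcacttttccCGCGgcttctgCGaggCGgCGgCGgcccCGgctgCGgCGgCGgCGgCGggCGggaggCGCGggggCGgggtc
EZH2 (chr7:148884292-148884541, minus strand, 38 CG): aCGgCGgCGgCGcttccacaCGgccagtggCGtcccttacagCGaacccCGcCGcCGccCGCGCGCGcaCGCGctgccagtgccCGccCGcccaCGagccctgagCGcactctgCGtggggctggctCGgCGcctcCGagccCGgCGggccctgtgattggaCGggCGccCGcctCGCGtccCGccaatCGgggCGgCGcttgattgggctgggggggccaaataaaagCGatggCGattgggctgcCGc
SUV39H1 (chrX:48695304-48695553, plus strand, 5 CG): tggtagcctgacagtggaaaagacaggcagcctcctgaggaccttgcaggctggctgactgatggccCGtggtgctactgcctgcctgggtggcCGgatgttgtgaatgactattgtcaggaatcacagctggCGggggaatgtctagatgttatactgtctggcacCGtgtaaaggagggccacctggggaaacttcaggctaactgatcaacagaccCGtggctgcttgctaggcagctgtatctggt
PRDM12 (chr9:130664344-130664593, plus strand, 19 CG): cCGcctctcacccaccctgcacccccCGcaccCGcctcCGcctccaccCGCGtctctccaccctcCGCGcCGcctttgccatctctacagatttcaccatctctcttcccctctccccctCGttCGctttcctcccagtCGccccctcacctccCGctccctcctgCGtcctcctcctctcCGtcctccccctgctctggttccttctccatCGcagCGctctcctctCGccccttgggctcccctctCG
KDM4F (chr11:95049172-95049421, plus strand, 1 CG): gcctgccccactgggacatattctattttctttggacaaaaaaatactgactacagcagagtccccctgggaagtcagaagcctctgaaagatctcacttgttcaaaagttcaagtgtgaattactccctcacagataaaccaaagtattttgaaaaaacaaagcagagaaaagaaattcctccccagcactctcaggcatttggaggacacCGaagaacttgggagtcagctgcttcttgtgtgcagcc
RefSeq gives 1 start for each gene here, and for some members it lies far from the gene's first annotated base, such as 3822 bases for PHF8 and 50480 for SETD7.

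**Figure D1:**
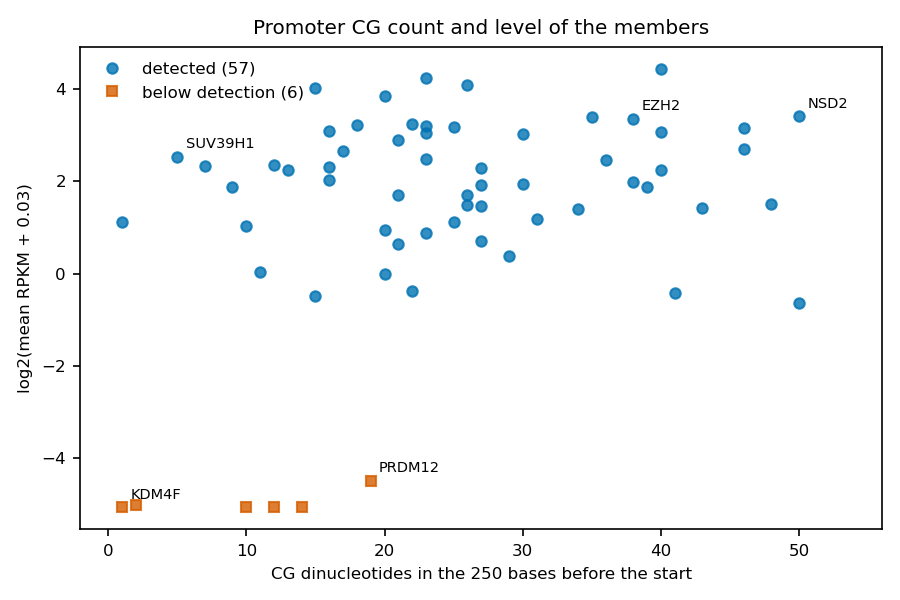
Number of CG dinucleotides in the 250 bases before the RefSeq start (x axis) against log2(mean RPKM + 0.03) over 3 libraries (y axis) for the 63 members with a match, detected members as circles and members below detection as squares. The 6 squares lie at 19 CG or fewer, while detected members spread from 1 to 50 CG.

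Among the writers of H3K4 methylation, all 7 genes of the MLL and SETD1 families were detected, between 2.24 and 9.13 RPKM. SETD1A and SETD1B, the catalytic subunits that place most trimethylation at promoters, stood at 69.6, 58.9 and 58.5 CPM and at 73, 64.9 and 62.9 CPM in libraries 1, 2 and 3. Per kb these were 9.13 ± 0.923 RPKM and 8.05 ± 0.644 RPKM, and SETD1A was above SETD1B in each library, although their ranges over the libraries overlap. Library 1 was the highest for both. KMT2D, which with KMT2C marks enhancers, had 169.8, 176 and 161 CPM or 8.26 ± 0.367 RPKM. KMT2C had 60.3, 59.8 and 50.1 CPM or 2.82 ± 0.285 RPKM, although partial copies of KMT2C elsewhere in the genome make its counts uncertain. KMT2B, which acts at many CpG-island promoters, had 48.8, 50.2 and 45.4 CPM, and KMT2A, the MLL1 gene of leukaemia translocations, 67.6, 71.6 and 71.3 CPM. Per kb of the union of exons KMT2A was the lowest of the 7 (2.24 ± 0.0717 RPKM), whereas per kb of the longest transcript KMT2C was. In KMT2A 17.9% of the exon length is shared with other genes on its strand. KMT2E, which resembles the family but has little enzyme activity of its own, had 82.3, 70.02 and 73.4 CPM (8.15 ± 0.689 RPKM).

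All 6 H3K9 methyltransferase genes were detected. EHMT2 (G9a), which with EHMT1 (GLP) places mono- and dimethylation, had the highest level per kb, with 60.7, 64.1 and 62.1 CPM (8.55 ± 0.235 RPKM), nearly level across the libraries. EHMT1 had 49.8, 66.2 and 61.4 CPM (2.66 ± 0.379 RPKM) and was lowest in library 1. SUV39H1 and SUV39H2 trimethylate H3K9 in pericentric heterochromatin. SUV39H1 stood at 18, 18.6 and 21.6 CPM (5.77 ± 0.576 RPKM) and SUV39H2 at 14.2, 12.8 and 15.3 CPM (3.95 ± 0.345 RPKM). Of the SUV39H1 exon length, 20.3% overlaps a gene on the other strand, whose reads cannot be told apart if strand was not used in counting. SETDB1, which silences retroelements with TRIM28, had 29, 25.1 and 23.7 CPM (3.66 ± 0.393 RPKM). SETDB2 had 20.8, 10.9 and 11.2 CPM (2.14 ± 0.839 RPKM), with library 1 far above the other two.

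For H3K27, EZH2 is the catalytic subunit of Polycomb repressive complex 2 in dividing cells and EZH1 its counterpart in resting cells. EZH2 (ENSG00000106462, chromosome 7 from 148807383 to 148884321, hg38) had 43.8, 45.3 and 49.5 CPM (10.2 ± 0.649 RPKM). EZH1 (ENSG00000108799, chromosome 17 from 42700275 to 42745049) had 27.2, 21.2 and 18.9 CPM (3.21 ± 0.609 RPKM). Their libraries did not overlap, and library 1 was the lowest for EZH2 and the highest for EZH1. Their sum was 13.6, 13.1 and 13.7 RPKM. EZH2 exceeded EZH1 by 3.22-fold per kb, with log2 ratios of 1.32, 1.72 and 2.01 in libraries 1, 2 and 3.

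The 5 H3K36 methyltransferase genes were detected between 4.99 and 10.7 RPKM. NSD2, which places dimethylation and is overexpressed in some myelomas, led with 192, 221 and 218 CPM (10.7 ± 0.805 RPKM). SETD2, which makes most trimethylation in gene bodies, had 73.3, 71.9 and 79.6 CPM (7.42 ± 0.406 RPKM). NSD3 had 98.7, 101 and 109 CPM (6.74 ± 0.348 RPKM), NSD1, mutated in Sotos syndrome, 70.3, 81.6 and 80.1 CPM (4.99 ± 0.394 RPKM), and ASH1L 79.1, 69.7 and 73.1 CPM (5.56 ± 0.36 RPKM). NSD1 and NSD2 were both lowest in library 1, as 48.4% of detected protein-coding genes were. The ratio of NSD1 to NSD2 per kb was nearly constant, with log2 values of -1.10, -1.09 and -1.09. Its SD of 0.00557 was the smallest of the 21 paralogue pairs compared, where the largest was 0.473. This pair is thus the extreme of 21, and its SD was not set against counting error. Whether NSD1 and NSD2 vary together was not tested. DOT1L, which methylates H3K79, had 33.6, 45.9 and 36.3 CPM (3.43 ± 0.572 RPKM), with library 2 highest.

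KMT5A, which places the first methyl group on H4K20 and is degraded in S phase, was the highest methyltransferase gene per kb outside the PRDM family, with 79.1, 73.9 and 79.7 CPM (16.9 ± 0.69 RPKM). KMT5B, which with KMT5C adds further methyl groups, had 31.8, 29.9 and 32.1 CPM (3.62 ± 0.143 RPKM), and KMT5C 8.65, 9.42 and 7.97 CPM (1.82 ± 0.151 RPKM). Neither KMT5B nor KMT5C had a spread that passed the test.

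The remaining SET-domain genes include enzymes whose best-known substrates are not histones. SETD3, the histidine methyltransferase of actin, had 50.002, 55.7 and 58.4 CPM (10.5 ± 0.823 RPKM) and SETD5 106, 100.1 and 86.8 CPM (9.04 ± 0.915 RPKM). SETD7, which monomethylates H3K4 and many other proteins, had 76.9, 55.1 and 74.2 CPM (4.94 ± 0.853 RPKM), with library 2 apart from the other two. SETD6, which methylates the NF-kappaB subunit RELA, stood at 2.77 ± 0.413 RPKM (21.4% of its exon length overlaps CNOT1 on the other strand), SETD9 at 1.9 ± 0.552 RPKM and SETD4 at 1.28 ± 0.252 RPKM. Of the SMYD genes, SMYD2, which methylates p53 among other proteins, was the highest per kb, with 30.7, 32.9 and 30.9 CPM (6.44 ± 0.249 RPKM). SMYD5 had 5.05 ± 0.67 RPKM and SMYD4 2.6 ± 0.183 RPKM. SMYD3, which methylates the kinase MAP3K2, had 10.3, 8.69 and 9.15 CPM (1.6 ± 0.139 RPKM).

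**Figure D2:**
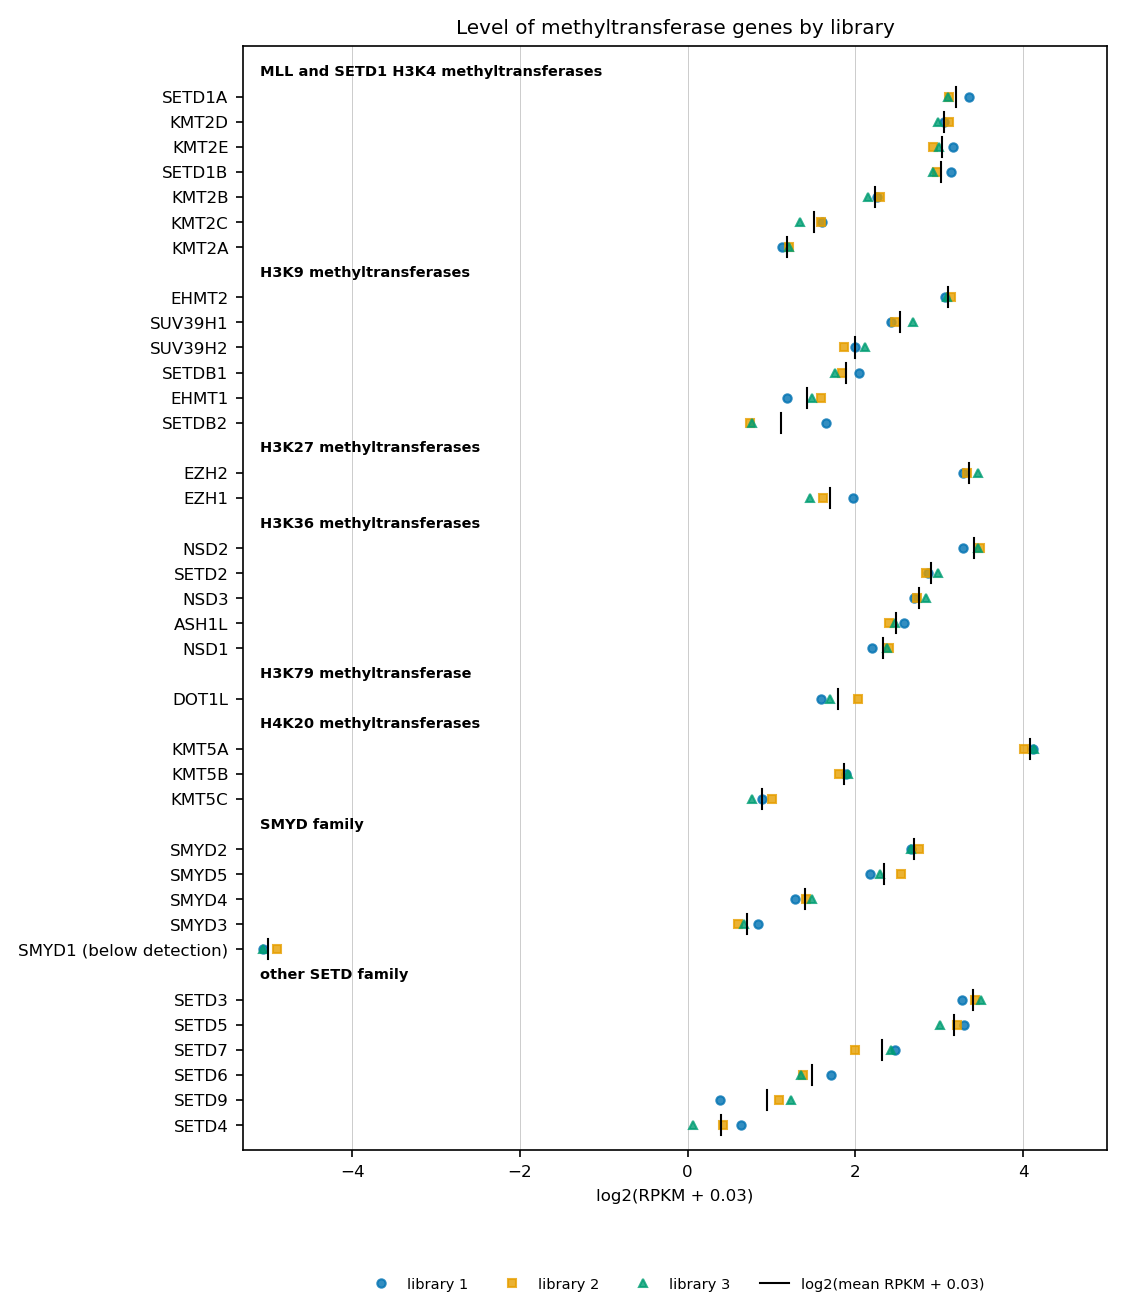
Level of the 35 methyltransferase genes as log2(RPKM + 0.03) (x axis) in each of 3 libraries, grouped by the lysine or family; vertical bars mark the mean. Library 1 lies apart from the other two for SETDB2, EZH1 and SETD9, and SMYD1 is the only gene below detection.

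Per kb of the union of exons, the PRDM family held both the highest detected member of the whole set and its lowest. Per kb of the longest transcript the highest was KDM1A (33.5) and the lowest was again PRDM16, while in CPM the highest was NSD2 and the lowest KDM4D. PRDM4 (ENSG00000110851, chromosome 12 from 107732866 to 107761272), a zinc-finger factor that recruits an arginine methyltransferase, reached 99.6, 109 and 101 CPM (21.6 ± 1.06 RPKM). PRDM8, a repressor known from neurons and retina, had 65.7, 66 and 66.9 CPM (14.4 ± 0.145 RPKM), and its spread was within counting noise (chi-square test, adjusted p = 0.756). The next level was much lower: PRDM2 (RIZ1), which has H3K9 methyltransferase activity, had 34, 28 and 27.8 CPM (2.74 ± 0.325 RPKM) and PRDM10 14.6, 13.8 and 11.5 CPM (2 ± 0.243 RPKM). PRDM1, the BLIMP1 repressor of plasma cell and germ cell fate, had 7.21, 5.96 and 5.86 CPM (0.992 ± 0.118 RPKM), PRDM11 0.971 ± 0.11 RPKM and PRDM15 0.721 ± 0.0357 RPKM. PRDM16, a regulator of brown fat and stem cells, had 3.67, 5.74 and 4.64 CPM (0.48 ± 0.106 RPKM).

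Among the erasers, KDM1A (LSD1, ENSG00000004487, chromosome 1 from 23019443 to 23083689), the amine oxidase that removes mono- and dimethyl groups from H3K4 within CoREST, was the highest demethylase gene per kb, though below KDM5C and KDM5A in CPM, with 97.8, 101 and 108 CPM (18.8 ± 0.946 RPKM). KDM1B, which removes the same mark in gene bodies and oocytes, had 24.6, 17.7 and 21.4 CPM (3.79 ± 0.617 RPKM), and the 2 genes did not overlap in any library. The KDM5 genes encode JmjC enzymes that remove H3K4 trimethylation. KDM5C had 130.001, 153 and 144 CPM (16.3 ± 1.35 RPKM), KDM5A 107, 114 and 116 CPM (9.3 ± 0.38 RPKM) and KDM5B 77.7, 105 and 107 CPM (3.73 ± 0.635 RPKM). All 3 were lowest in library 1, under each of 3 scalings, beside 48.4% of detected protein-coding genes that were lowest there.

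KDM2A and KDM2B bind CpG islands and remove H3K36 dimethylation. KDM2A had 85.6, 88.7 and 85 CPM (8.32 ± 0.193 RPKM) and KDM2B 65.1, 65.8 and 62 CPM (4.72 ± 0.148 RPKM), and neither spread passed the test. KDM3B, which with KDM3A removes mono- and dimethyl groups from H3K9, had 71.7, 78.6 and 75.8 CPM (9.46 ± 0.435 RPKM), and KDM3A, a target of hypoxia signalling, 57.2, 53.3 and 53.2 CPM (4.06 ± 0.167 RPKM).

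Of the KDM4 enzymes, KDM4A, KDM4B and KDM4C remove trimethylation from H3K9 and H3K36. KDM4A had 31, 33.9 and 33.2 CPM (6.32 ± 0.289 RPKM), KDM4B 72, 91.9 and 78.5 CPM (5.49 ± 0.69 RPKM) and KDM4C 14.8, 16.4 and 16 CPM (1.52 ± 0.0826 RPKM). An annotated gene on the same strand overlaps 40.2% of the KDM4A exon length, so its count is uncertain. KDM4D, known from testis, stood at 0.743 ± 0.222 RPKM.

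The H3K27 demethylase gene KDM6A (UTX) had 33.3, 36.6 and 34.4 CPM (4.87 ± 0.232 RPKM) and KDM6B (JMJD3), which is induced by inflammatory signals, 28.2, 23 and 19.2 CPM (3.23 ± 0.623 RPKM). KDM6B was highest in library 1, as EZH1 was and as 36.9% of detected protein-coding genes were. In the KDM7 family PHF2, which acts on H3K9 dimethylation, had 43.9, 55.6 and 48.7 CPM (8.87 ± 1.06 RPKM). PHF8, an eraser of H3K9 and H4K20 methylation mutated in X-linked intellectual disability, had 18.3, 19.97 and 19.9 CPM (2.15 ± 0.105 RPKM), and KDM7A 7.42, 5.63 and 4.19 CPM (0.609 ± 0.171 RPKM). KDM8, whose activity as a demethylase is debated, stood at 0.687 ± 0.182 RPKM.

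**Figure D3:**
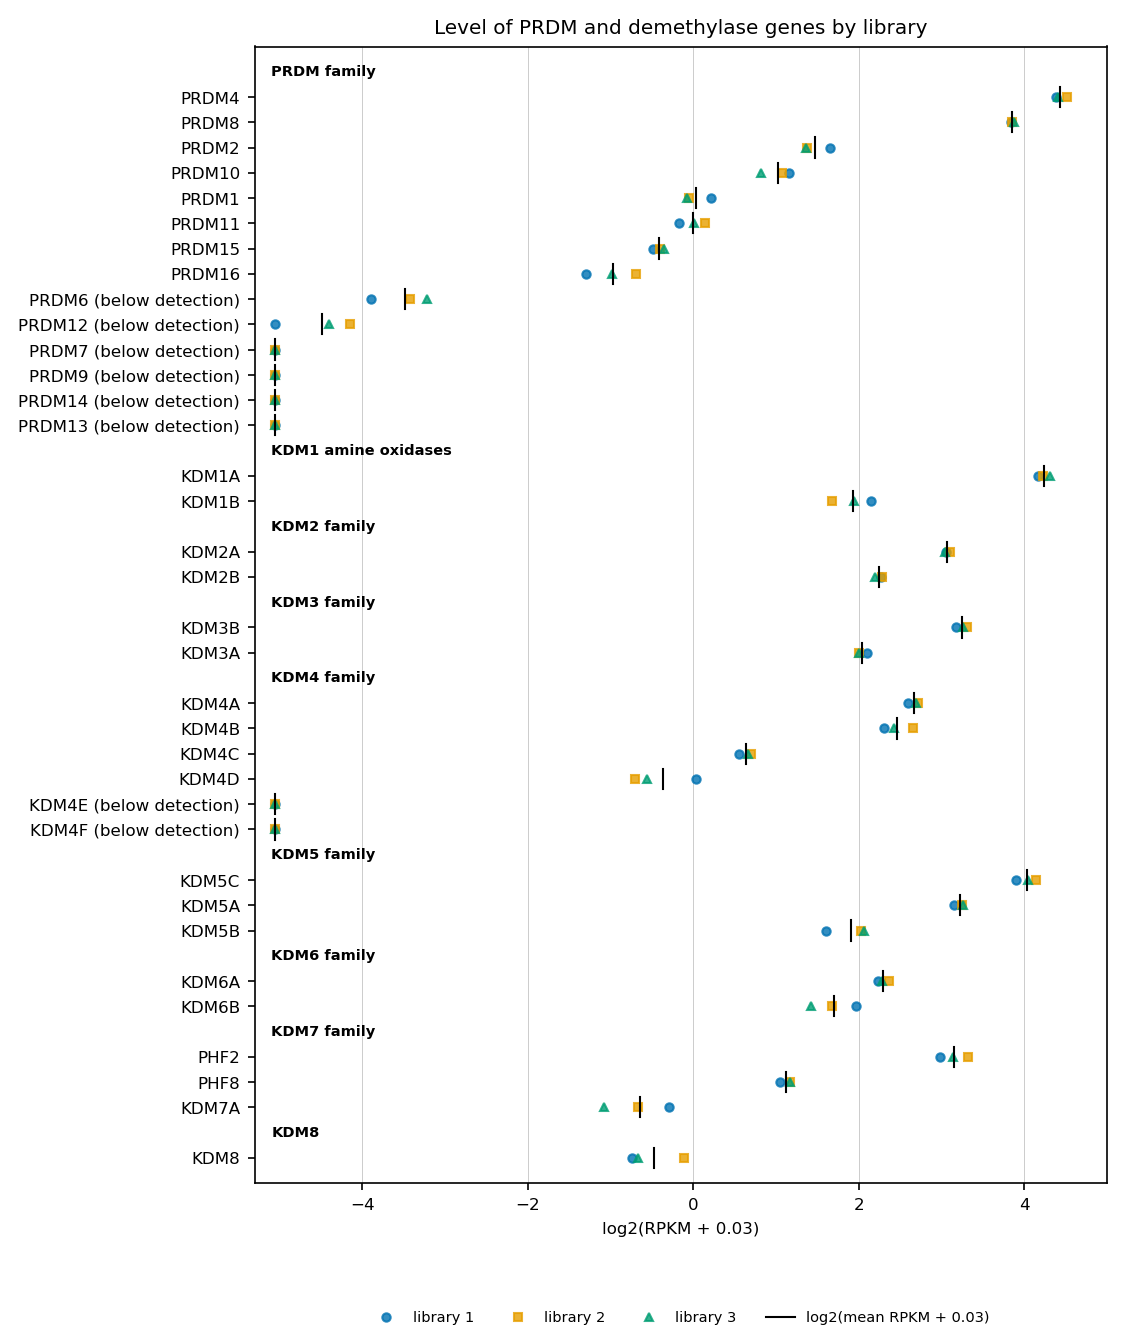
Level of PRDM genes and of the 21 demethylase genes as log2(RPKM + 0.03) (x axis) in each of 3 libraries; vertical bars mark the mean. PRDM4, KDM1A and KDM5C lie farthest right and 8 genes lie below detection.

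Paralogues were compared within each library as the log2 ratio of counts per kb, for 21 pairs. With 3 libraries the exact sign-flip test cannot give p below 0.25 (two-sided), so no pair can pass, and every pair reached that value because all 21 kept 1 order in 3 of 3 libraries. In 12 pairs the difference was at least 2-fold. The widest were KDM1A over KDM1B (5-fold, log2 ratios 2.03, 2.56 and 2.37), KDM4A over KDM4C (4.15-fold), PHF2 over PHF8 (4.1-fold), SMYD2 over SMYD3 (4.04-fold) and PHF8 over KDM7A (3.62-fold). EHMT2 exceeded EHMT1 by 3.23-fold, KMT2D exceeded KMT2C by 2.93-fold, KDM5A exceeded KDM5B by 2.52-fold and KDM3B exceeded KDM3A by 2.33-fold. Without length EHMT2 and EHMT1 were nearly level, with a mean log2 ratio of 0.08. In library 2 EHMT1 then stood above EHMT2 (4021 against 3895 counts). NSD2 exceeded NSD1 by 2.13-fold and KMT2B exceeded KMT2A by 2.09-fold.

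Closer pairs were SUV39H1 over SUV39H2 (1.46-fold), KDM6A over KDM6B (1.53-fold, log2 ratios 0.27, 0.69 and 0.87), NSD3 over NSD1 (1.35-fold) and SETD1A over SETD1B (1.13-fold). KMT5B stood above KMT5C by 1.99-fold, SETDB1 above SETDB2 by 1.78-fold, KDM2A above KDM2B by 1.76-fold and KDM5C above KDM5A by 1.75-fold. Most ratios moved with the length chosen. With the longest annotated transcript as length, EHMT2 exceeded EHMT1 by 2.01-fold, SMYD2 exceeded SMYD3 by 1.32-fold, KDM5A exceeded KDM5B by 1.13-fold, KDM4A exceeded KDM4C by 2.16-fold and NSD2 exceeded NSD1 by 4.1-fold. KMT2B then exceeded KMT2A by 1.35-fold, and KDM4B stood above KDM4A by 1.93-fold, where the union put KDM4A above KDM4B by 0.21 on the log2 scale. EZH2 over EZH1 (2.64-fold) and KDM1A over KDM1B (6.05-fold) were among the pairs that moved by less than 1.5 times.

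**Figure D4:**
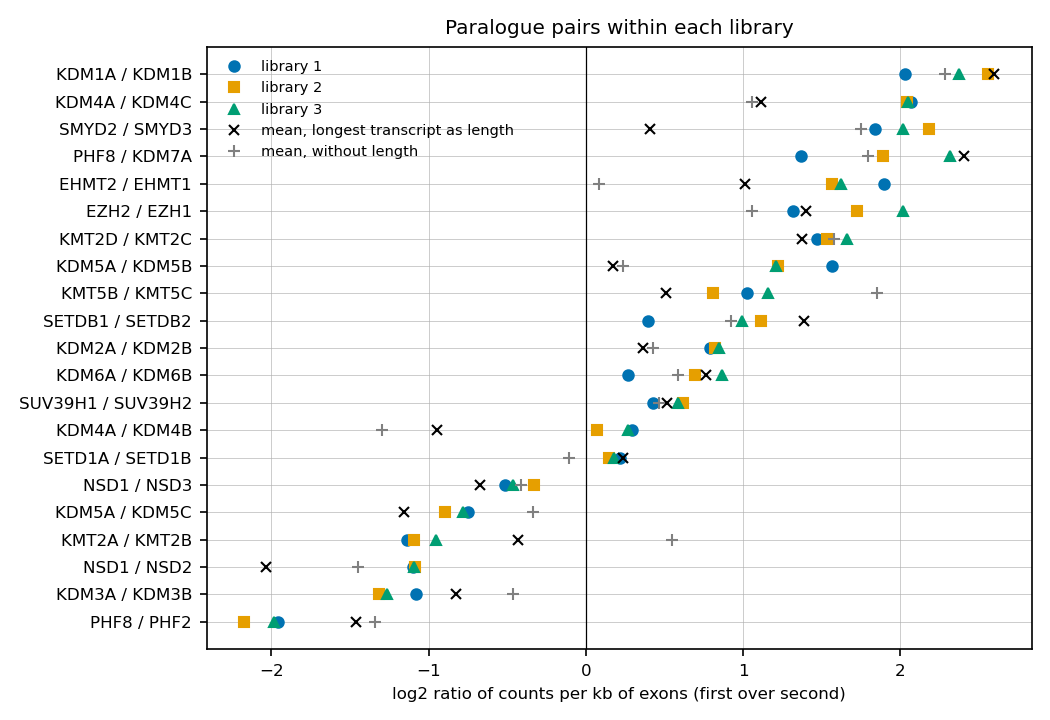
Log2 ratio of counts per kb of exons for 21 paralogue pairs, first over second, in each of 3 libraries, with the mean for the longest transcript as length (crosses) and without length (plus signs). All 3 library points of a pair lie on 1 side of 0, while the sign changes with the length for KDM4A over KDM4B and without length also for KMT2A over KMT2B and SETD1A over SETD1B.

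The spread of each gene between the libraries was set against counting noise with a chi-square test. It covered the 16293 genes whose mean count reached 10, and p was adjusted by the Benjamini-Hochberg method. Of 63 members tested, 52 passed (82.5%), beside 68.6% of all tested genes and 77.5% of detected protein-coding genes. Smaller relative spreads pass where counts are higher, so the shares that pass, here and below, also depend on count level. Detected members had a median of 42.4 CPM, beside 32.97 over detected protein-coding genes. The spreads were small: the median ratio of highest to lowest CPM was 1.18 over tested members and 1.20 over tested protein-coding genes. No called member reached a ratio of 2, and 6 of 52 reached 1.5 (11.5%, beside 11.3% of called detected protein-coding genes and 25.6% of all called genes). The 11 members that did not pass were EHMT2, KMT5B, KMT5C, SMYD2, PRDM6, PRDM8, PRDM15, KDM2A, KDM2B, KDM4C and PHF8. When the test also allowed a coefficient of variation of 0.05, 19 of 63 members passed (30.2%), beside 32.7% of all tested genes and 31.0% of detected protein-coding genes.

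Of the 52 members that passed, library 1 lay farthest out in 29 (55.8%), beside 66.4% of all called genes. It lay farthest out and higher in 15 of the 52 (28.8%, beside 29.4% of all called genes) and farthest out and lower in 14 (26.9%, beside 37.0%). Among all 62 detected members, library 1 was lowest in 31 and highest in 22, beside 48.4% and 36.9% of detected protein-coding genes. Without library 1, 28 of 63 members passed (44.4%), beside 28.1% of all tested genes and 35.4% of detected protein-coding genes, and 27 of them were among the 52. With the allowance of 0.05 as well, which was tried after seeing the data, SETD7 was the 1 member that passed (1.59%), beside 0.625% of all tested genes.

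Among the called members with a mean count of at least 50, SETDB2 had the widest ratio, 1.9, with deviations from its mean of 0.59, -0.31 and -0.28 on the log2 scale in libraries 1, 2 and 3 (adjusted p = 3.1e-48, chi-square test). SETD9 was lowest in library 1, with 3.46, 5.7 and 6.31 CPM (ratio 1.82, adjusted p = 2.66e-09). KDM7A followed with a ratio of 1.77, KDM4D with 1.7, KDM8 with 1.58, PRDM16 with 1.57 and SETD4 with 1.49 (11.1, 9.58 and 7.44 CPM). KDM6B (1.47), EZH1 (1.43) and SETD7 (1.4) completed the 10 widest of these. PRDM6, below detection and not called, had a ratio of 2.07. SETDB2, KDM4D, KDM7A, KDM6B, EZH1, SETD4 and SETD7 were highest in library 1, and SETD9, KDM8 and PRDM16 were lowest there. Without library 1, the spread no longer passed for SETDB2 (adjusted p = 0.833, chi-square test), SETD9 (0.362) and KDM4D (0.667), and it passed for the other 7, with adjusted p from 1.61e-32 for SETD7 to 0.0476 for PRDM16. Differences between the cells and between the library preparations cannot be told apart here.

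**Figure D5:**
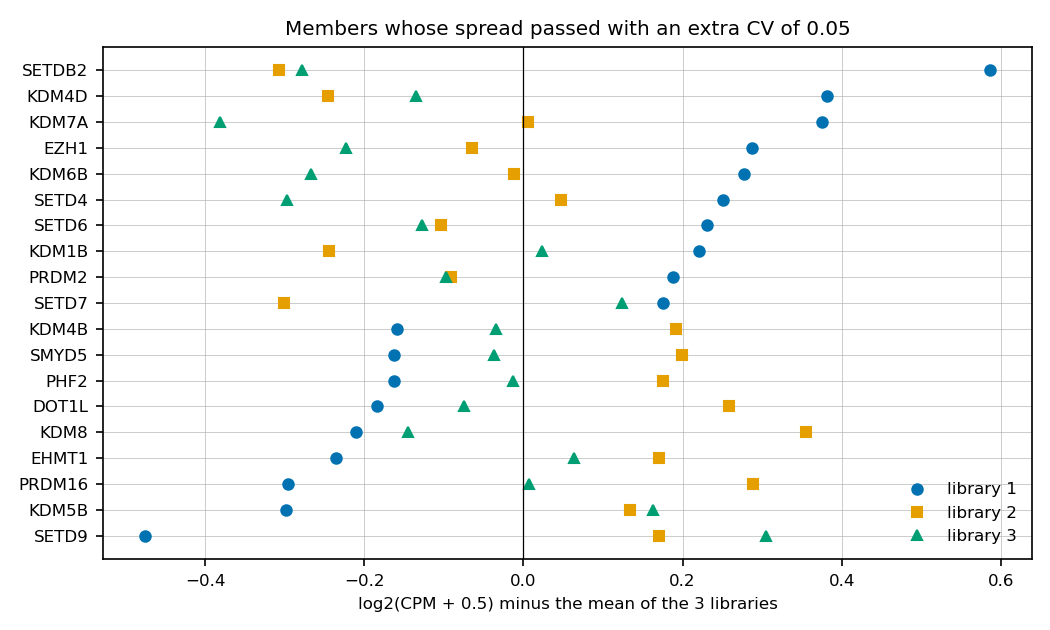
Deviation of log2(CPM + 0.5) from the mean of the 3 libraries (x axis) for the 19 members whose spread passed with an extra coefficient of variation of 0.05. Library 1 (circles) is the highest for 10 genes, from SETDB2 at 0.59 to SETD7 at 0.18, and the lowest for the other 9, down to SETD9 at -0.48. Over all detected protein-coding genes, passing or not, library 1 was the highest in 36.9% and the lowest in 48.4%.

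The partners of these enzymes were nearly all detected. All 14 COMPASS partners, which assemble around the H3K4 methyltransferases, were detected (median 9.26 RPKM). PSIP1, which tethers MLL complexes to chromatin, had 211, 128 and 152 CPM (24.2 ± 6.3 RPKM) and was highest in library 1, WDR82 of the SETD1 complexes stood at 23.5 ± 2.65 RPKM, and PAGR1 was lowest at 1.51 ± 0.461 RPKM with 66% of its exon length shared on its strand. The spread passed for 11 of the 14 (78.6%, beside 68.6% of all tested genes and 77.5% of detected protein-coding genes, which are also the shares to set beside the lists that follow). Of 11 partners in Polycomb repressive complex 2, 10 were detected (median 8.21 RPKM) and 9 of these passed, beside 77.5% of detected protein-coding genes. The histone-binding subunits RBBP7 (23 ± 1.45 RPKM) and RBBP4 (15.7 ± 0.998 RPKM) were the highest per kb, EPOP was lowest (2.33 ± 0.319 RPKM), and CXorf67, which encodes an inhibitor of the complex, had 0 counts. SUZ12, a core subunit, had 76.1, 51.3 and 58.9 CPM and AEBP2 54.8, 37.2 and 41.7 CPM, both highest in library 1, while the core subunit EED had 14.8, 18.8 and 20.1 CPM, lowest there.

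All 12 partners and readers of H3K9 methylation were detected (median 10.6 RPKM) and 11 passed (91.7%, beside 77.5%). TRIM28, the corepressor that brings in SETDB1, was the highest per kb with 87.9 ± 18.1 RPKM (271, 405 and 388 CPM, where CBX5 had 549.6, 539 and 597 CPM) and was lowest in library 1, followed by the heterochromatin protein gene CBX1 (49.5 ± 2.09 RPKM), with MORC2 lowest (5.17 ± 0.372 RPKM). Of the MORC2 exon length 25.8% overlaps MORC2-AS1 on the other strand, so its level is uncertain if strand was not used in counting. Of 9 LSD1 complex partners 6 were detected (median 5.37 RPKM), led per kb by the deacetylase genes HDAC1 (24.1 ± 0.605 RPKM) and HDAC2 (12.6 ± 0.816 RPKM), with ZMYM2 lowest (2.75 ± 0.171 RPKM). RCOR2, with 0, 22 and 13 counts, and the blood-cell factors GFI1 (6, 13 and 9 counts) and GFI1B (0, 3 and 2 counts) were below detection. In this list 6 of 7 tested genes passed, RCOR2 among them (85.7%, beside 68.6% of all tested genes).

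All 6 DOT1L partners were detected (median 6.93 RPKM) and 5 passed (83.3%, beside 77.5%). MLLT1 (18.6 ± 1.43 RPKM) and AFF4 (13.7 ± 1.02 RPKM), both of the elongation complexes, were the highest per kb and MLLT3 the lowest (3.09 ± 0.137 RPKM). Of 10 relatives with JmjC or methyltransferase domains that the symbols did not select, 9 were detected (median 5.21 RPKM) and 4 passed (44.4%, beside 77.5%), JARID2 among them, which also belongs to Polycomb repressive complex 2. They ran from JMJD1C (15.6 ± 1.6 RPKM) and RIOX1 (9.29 ± 0.251 RPKM) down to RIOX2 (0.999 ± 0.0552 RPKM), and HR, of skin and hair follicle, had 0, 18 and 10 counts. Of the RIOX2 exon length 27.6% overlaps CRYBG3 on the other strand, so its level is uncertain if strand was not used in counting. MECOM, which encodes a PRDM protein under another name, stood at 5.21 ± 0.172 RPKM.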

How the data were processed

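The authors deposited raw read counts per gene as whole numbers. The submitters' processing notes list hg38, STAR 2.5.2a, featureCounts 1.6.2 and cutadapt 1.16 without settings, and say nothing of annotation or use of strand. All 58735 identifiers matched GENCODE release 29, from which positions and exon lengths came. A further 6 columns of counts, whose names fit none of the samples, were left out. Protein sequences were not used here.

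TMM factors came from edgeR 4.0.16 and size factors, as an alternative, from DESeq2 1.42.0 (R 4.3.3). CPM refers to totals scaled by TMM factors (0.985, 1.01 and 1.00). RPKM is CPM per kb of the union of exons. Detection required 1 CPM in each library. Spread was tested against counting error alone by chi-square (2 degrees of freedom, mean count at or above 10, Benjamini-Hochberg threshold 0.05). Deviations used log2(CPM + 0.5) and pair ratios a pseudocount of 0.5 count. Alternatives changed scaling, length, limits and libraries.

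Every member may be named, but 1 is not reported here and enters only the counts and medians. Values in each library are given for pair members, the highest and lowest of each list, the 10 called members of widest ratio (mean count 50 or more), and others chosen after their values were seen. From each partner list the 2 highest, the lowest detected and the undetected genes are named. Of these lists, SUZ12, AEBP2, EED and MECOM were named after their values were seen, and CBX5 and JARID2 were also named outside this rule. The members and lists were chosen with earlier results of these data known.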

Additional observations from a re-analysis of the deposited data

How the results depend on the processing

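The count of detected members was 61 to 62 under every scaling, limit and omission tried. The count of pairs with 1 order was 20 of 21 without length and 21 under the other alternatives. EHMT2 over EHMT1 was the pair of mixed order without length. The count with spread beyond counting noise was 50 with DESeq2 size factors (beside 68.6% of all tested genes), 57 with library totals (69.3%), 50 of 65 tested without a filter (48%) and 19 with an extra coefficient of variation of 0.05 (32.7%). It was 28 without library 1 (28.1%), 44 without library 2 (56.8%) and 48 without library 3 (60.7%). Library 1 was the farthest in 29 of 52 called members (55.8%, beside 66.4% of all called genes) and in 27 of 50 with DESeq2 size factors. With the extra allowance library 1 was the farthest in 10 of the 19, an alternative chosen after seeing the data, for which fewer genes pass. The share over all called genes is not given for these alternatives. The median level of 4.37 RPKM became 6.10 with the longest transcript as length (8.40 over detected protein-coding genes) and 3.66 over all members (1.15 over all protein-coding genes), and ran from 4.33 to 4.42 when 1 library was left out. Without length, the log2 ratio turned to 0.55 for KMT2A over KMT2B, -0.10 for SETD1A over SETD1B and -1.30 for KDM4A over KDM4B, and the last was -0.95 with the longest transcript. No pair ratio changed sign with a library left out or with a pseudocount of 5 counts. The lowest library was the same under 3 scalings for 60 of 62 detected members. No paired analysis was possible because the libraries form 1 group. The highest and lowest genes of several lists change with the length, a check added after seeing the data. Depth limits the genes with few counts, and the floor of 3 counts covers counting error only.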
